A study of Homo sapiens with 27 samples.

Results

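The CDC-like kinases CLK1, CLK2, CLK3 and CLK4 were followed through RNA Frac-Seq of U2OS cells, a human osteosarcoma line. The members were the rows of the deposited FPKM table whose Ensembl gene ID is that of one of these genes, 4 of 34464 genes. All 4 passed the filter of a mean above 1 FPKM, which left 14611 genes for testing. U2OS cells received lentivirus with a scrambled control shRNA or with either of the independent TPR shRNAs ('TPR A' and 'TPR D') for 5 days, under puromycin selection. Control cells thus carried virus and selection as well. TPR is a long coiled-coil protein of the nuclear basket of the nuclear pore. Each shRNA was given to 3 cultures, 9 in all, and poly(A)+ RNA of every culture was sequenced as total RNA and as its nuclear and cytoplasmic/ER fractions, which gave 27 libraries. Whole cultures were sampled, so fewer transduced or responding cells and less RNA per cell cannot be told apart. The study's methods call the replicates biological, and the limma p-values measure the spread between the 3 libraries of a group. That fit has no term for the culture, so its N/C tests and intervals do not use the pairing of fractions from the same culture.

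CLKs are dual-specificity kinases that phosphorylate SR proteins, the serine- and arginine-rich splicing factors, and so release them from nuclear speckles. Some CLK transcripts keep introns after polyadenylation. Such detained introns hold a polyadenylated RNA in the nucleus, where it can be spliced later, and for CLK1 the introns on either side of exon 4 are the known example. The kinase itself takes part in this step, since blocking CLK activity promotes splicing of its own detained introns. The ratio of a CLK mRNA between nucleus and cytoplasm before and after loss of TPR was therefore the comparison of interest. The deposited values bear on this only by gene. The reads were quantified on protein-coding and lncRNA transcripts, and transcripts annotated as retained introns were not in that index, so intron reads were not measured and the detained introns themselves could not be checked.

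In the GRCh37 annotation, the build of the files, the canonical transcript of each member has 13 exons and 12 introns. CLK1 lies at chr2:201717732-201729414 on the minus strand, CLK2 at chr1:155232659-155248282 on the minus strand, CLK3 at chr15:74890841-74937755 on the plus strand and CLK4 at chr5:178029665-178057616 on the minus strand. Of the annotated transcripts, 8 of 14 were retained-intron transcripts in CLK1, 8 of 27 in CLK3 and 7 of 13 in CLK4, whereas none of 7 was in CLK2. Among the 12381 tested protein-coding genes 59.92% had at least 1 such transcript, with a median of 1, and 8.513% had 7 or more. Introns 3 and 4, which flank exon 4, were each held whole in a retained-intron transcript in CLK1, CLK3 and CLK4. They were not the only ones, since introns 2 and 7 of CLK1 and introns 11 and 12 of CLK4 were held whole as well. In all, this held for 4 of 12 introns in CLK1, 2 in CLK3 and 4 in CLK4. In CLK2 introns 4, 10 and 11 were each held whole in 1 transcript of another type.

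The 5′ splice sites of intron 4 are shown because the same position stood out in all 4 genes. Each line gives the last 3 bases of exon 4 and the first 6 of the intron, from 5′ to 3′ on the gene's strand, with the invariant GT in capitals.
CLK1, chr2:201724470-201724847: gatGTatag
CLK2, chr1:155238151-155238498: gatGTacaa
CLK3, chr15:74914558-74914834: gatGTacag
CLK4, chr5:178043950-178044344: gatGTatag
The site was identical in CLK1 and CLK4. Each of the 4 matched 4 of the 9 letters of CAGGTAAGT, the sequence complementary to the start of U1 snRNA, read on the gene's strand only. Over 130674 annotated introns the median was 6 letters and 1.673% matched as few as 4 or fewer. In each gene this was the lowest match among its 12 introns. The introns were short, with 378 nt in CLK1, 348 nt in CLK2, 277 nt in CLK3 and 395 nt in CLK4. The 3′ ends of these introns, with the last 20 intron bases and the first 3 of exon 5 and AG in capitals, are shown for the pyrimidine tracts before the AG.
CLK1: gatttatttctctcttttAGatg
CLK2: cctgctctctttcatttcAGatg
CLK3: caatttcttttctctcctAGatg
CLK4: tttttccctcctcactctAGatg
At intron 3 the 5′ splice site differed between the members and is shown for that contrast.
CLK1: gggGTatga
CLK2: tcgGTgagt
CLK3: tcgGTgagt
CLK4: tcgGTatga
This site matched 5 letters in CLK1 and CLK4 and 6 in CLK2 and CLK3, and intron 3 was 1022 nt, 1121 nt, 692 nt and 1894 nt long in that order. Letter matches are a description of the sequence and were not tested against the RNA values. Intron 4 of CLK2 had as weak a match as that of the other members, although no retained-intron transcript is annotated for CLK2.

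**Figure D1:**
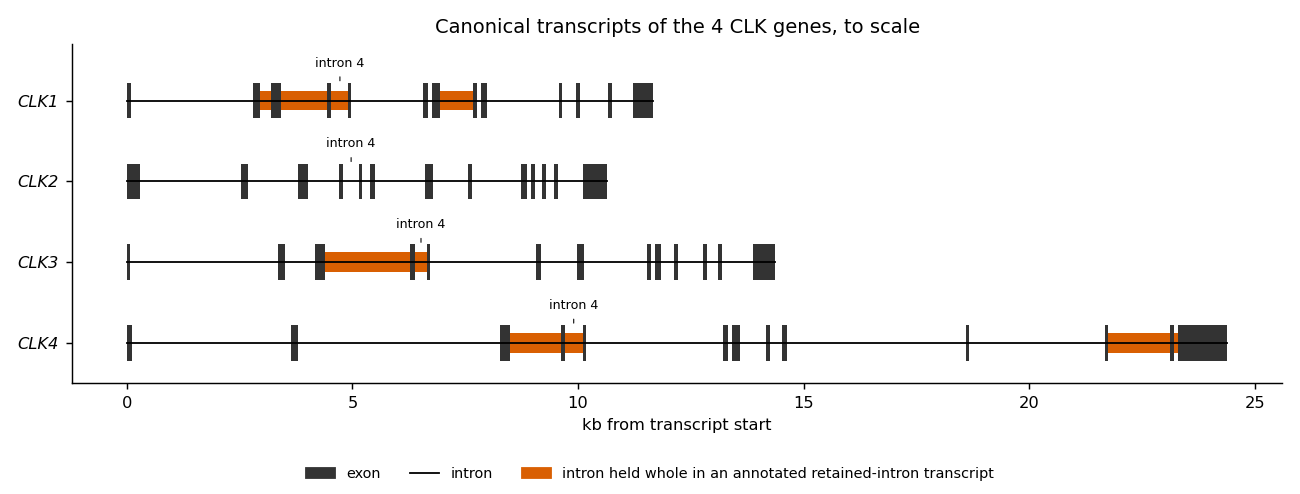
Exons (dark), introns (line) and introns held whole in an annotated retained-intron transcript (orange) of the canonical transcripts of CLK1, CLK2, CLK3 and CLK4, in kb from the transcript start. Orange blocks lie on both sides of exon 4 in CLK1, CLK3 and CLK4. They also mark introns 2 and 7 of CLK1 and introns 11 and 12 of CLK4, and CLK2 has none.

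The knockdown was checked first. TPR was at 28.2, 25.7 and 25.3 FPKM in the total libraries of the control cultures, at 4.36, 3.44 and 4.70 FPKM with TPR A, and at 3.23, 4.74 and 6.01 FPKM with TPR D. All TPR-depleted cultures lay below all control cultures. One culture stood apart. In the library labelled control nuclear replicate 2, genes of the mitochondrial genome took 21.8% of the summed FPKM, against 0.774 to 2.42% in the other 8 nuclear libraries. In the library labelled control total replicate 2 they took 0.738%, against 15.8 to 24.7% in the other 8 total libraries. Over all tested genes the former correlated best with the total libraries (Pearson r = 0.977, against 0.944 with the nuclear ones) and the latter with the nuclear libraries (r = 0.973, against 0.940 with the total ones). Each of the remaining 25 correlated best with the fraction on its label. These libraries were kept as labelled, and many of the values that move markedly without control replicate 2, but not all, are also given without it. A value of 1 FPKM on 1 kb stood for an estimated 31.4 to 86.8 reads, which put CLK4, the lowest member, at 48.8 to 786 reads per library. That is counting error only.

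The members differed in level, on the FPKM scale, which is per length. CLK3 was the highest member in all 9 nuclear and all 9 cytoplasmic/ER libraries and in 8 of 9 total libraries, and CLK4 was the lowest in all 27. CLK3 ranged from 26.6 to 54.9 FPKM in nuclear, from 26.6 to 81.2 FPKM in cytoplasmic/ER and from 19.8 to 62.6 FPKM in total libraries. CLK2 kept within 11.3 to 18.2 FPKM in all 27 libraries. CLK1 and CLK2 overlapped in the nuclear libraries, with 12.4 to 17.0 FPKM for CLK1 and 13.1 to 18.2 FPKM for CLK2, and in the total libraries, with 12.6 to 28.3 FPKM and 13.4 to 18.1 FPKM. In the cytoplasmic/ER libraries they did not overlap, since the highest CLK1 value was 7.66 FPKM and the lowest CLK2 value 11.3 FPKM. CLK1 thus stood beside CLK2 in the nucleus and below it in the cytoplasm. As shares of the summed FPKM of the 4 genes, the median library had 19.2% CLK1 in the nuclear and 9.41% in the cytoplasmic/ER fraction, while CLK3 had 56.8% and 66.9%. CLK4 had 2.66% and 1.66%.

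**Figure D2:**
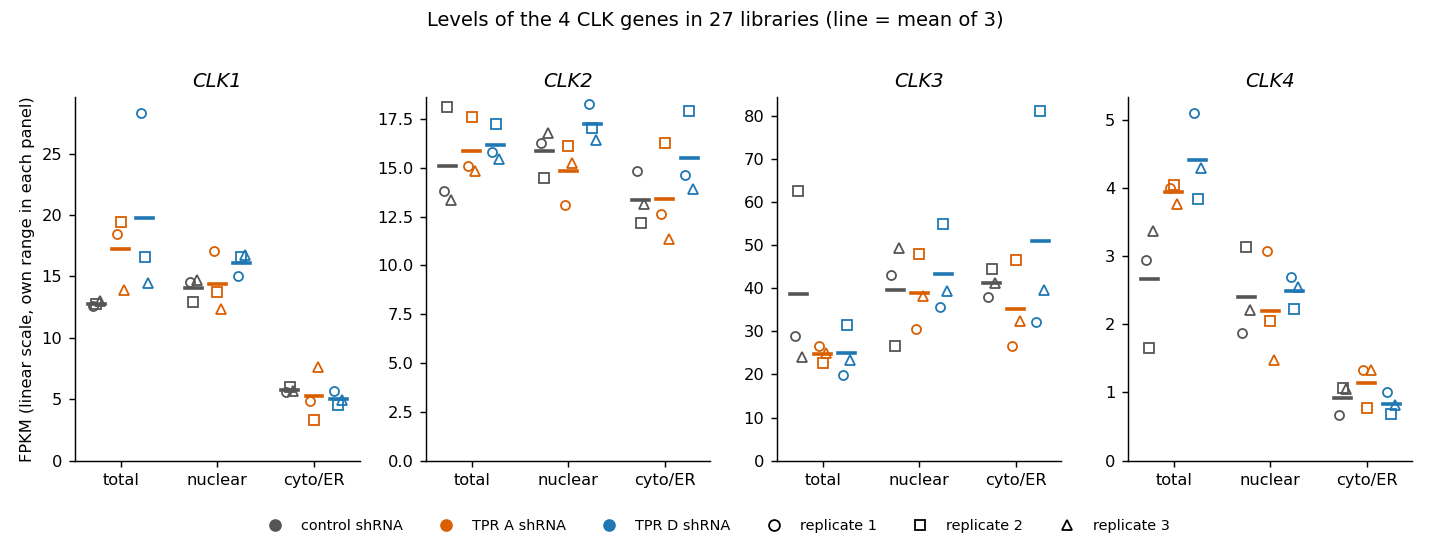
FPKM (linear axis from 0, with its own range in each panel) of CLK1, CLK2, CLK3 and CLK4 in the total, nuclear and cytoplasmic/ER libraries, coloured by shRNA, with a symbol for each replicate number and a line for the mean of 3. CLK1 and CLK4 lie lowest in the cytoplasmic/ER libraries, whereas CLK2 stays between 11.3 and 18.2 FPKM in every fraction.

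In control cells CLK1 and CLK4 were nuclear-enriched mRNAs. CLK1 was at 14.5, 12.9 and 14.7 FPKM in the nuclear libraries and at 5.57, 6.0 and 5.71 FPKM in the cytoplasmic/ER libraries of replicates 1, 2 and 3. Every nuclear value was above every cytoplasmic/ER value. The N/C ratio (nuclear over cytoplasmic/ER level, on the log2 scale with 0.1 FPKM added) is relative, since FPKM are scaled within each library, so a ratio above 0 stands for enrichment against the typical gene (median -0.01 over all genes) and not for more molecules. For CLK1 it was 1.30 ± 0.14 (SD, n = 3), a 2.47-fold difference (limma SE 0.25, adjusted p = 0.00031). CLK4 was at 1.87, 3.14 and 2.21 FPKM in the nuclear and at 0.664, 1.06 and 1.05 FPKM in the cytoplasmic/ER libraries, again without overlap. Its log2 N/C ratio was 1.32 ± 0.25 (SD, n = 3), or 2.49-fold (limma SE 0.31, adjusted p = 0.00206). Of all 14611 genes, 20.2% were called nuclear-enriched in control cells, so the call itself is common, and CLK1 and CLK4 lay at the 90.8th and 91.0th percentile of the ratio. The share of all genes without overlap between these libraries was not determined. Without control replicate 2 the ratios were 1.39 for CLK1 (limma adjusted p = 0.00295) and 1.21 for CLK4 (limma adjusted p = 0.0102).

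The N/C ratios of CLK2 and CLK3 in control cells did not pass the test. CLK2 was at 16.2, 14.5 and 16.8 FPKM in control nuclear and at 14.8, 12.2 and 13.1 FPKM in control cytoplasmic/ER libraries, and these groups overlapped. Its log2 ratio was 0.28 ± 0.11 (SD, n = 3; limma SE 0.16, adjusted p = 0.168). CLK3 was at 43.0, 26.6 and 49.4 FPKM in the nuclear and at 37.9, 44.6 and 41.1 FPKM in the cytoplasmic/ER libraries. The nuclear value of replicate 2 was the lowest of the 6, and this is the library that was closest to the total fraction. The log2 ratio of CLK3 was -0.06 ± 0.55 (SD, n = 3; limma adjusted p = 0.902) with that culture and 0.26 without it (limma adjusted p = 0.609). The 95% limits of the control log2 ratio were -0.05 to 0.61 for CLK2 and -0.75 to 0.62 for CLK3.

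The same division held within single cultures. The log2 N/C ratio of CLK1 was above 0 in 9 of 9 cultures, from 0.69 to 2.03, and that of CLK4 in 9 of 9, from 0.16 to 1.58. For CLK2 it ran from -0.06 to 0.43, above 0 in 8 of 9, and for CLK3 from -0.70 to 0.30, above 0 in 7 of 9. The share of all genes with as many cultures above 0 was not determined. The members thus differed in the size of the ratio more than in its sign. CLK1 had a higher ratio than CLK2 and than CLK3 in 9 of 9 cultures. CLK4 had a higher ratio than either in 8 of 9, and TPR A replicate 3 was the exception for both. CLK1 was higher than CLK4 in 8 of 9 cultures by up to 0.73 on the log2 scale and lower by 0.38 in control replicate 2, the culture that stood apart.

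**Figure D3:**
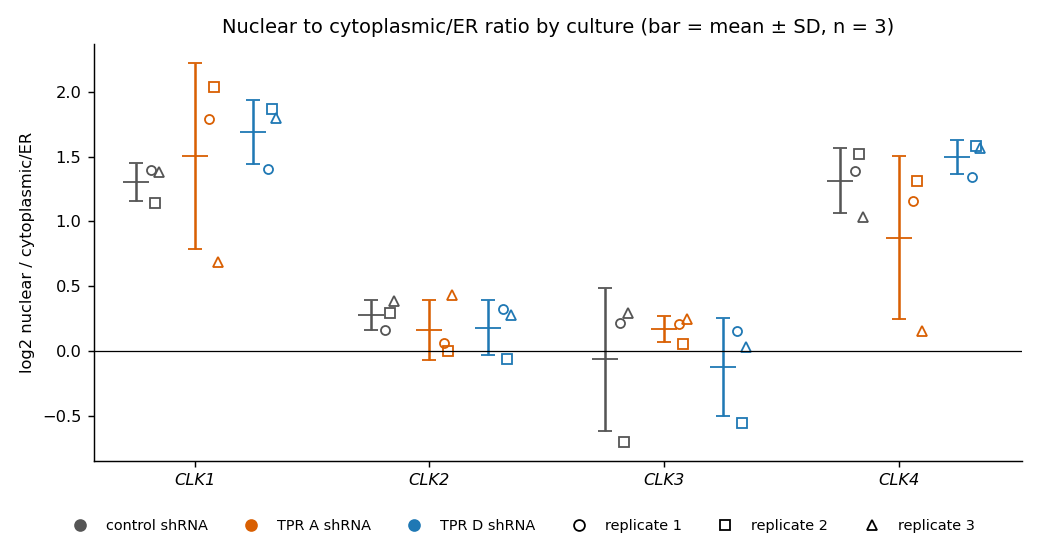
Log2 ratio of nuclear to cytoplasmic/ER level of the 4 CLK genes in each of 9 cultures, with the mean ± SD (n = 3) for control, TPR A and TPR D shRNA; the line at 0 marks equal scaled levels. CLK1 and CLK4 lie above 0 in all 9 cultures, from 0.16 to 2.03, while CLK2 and CLK3 lie between -0.70 and 0.43.

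Within TPR-depleted cells CLK1 and CLK4 remained on the nuclear side. With TPR A, CLK1 was at 17.0, 13.8 and 12.4 FPKM in the nuclear and at 4.89, 3.31 and 7.66 FPKM in the cytoplasmic/ER libraries. Replicate 3 had both the lowest nuclear and the highest cytoplasmic/ER value. The log2 ratio was 1.51 ± 0.72 (SD, n = 3; limma adjusted p = 0.000146), beside 15.2% of all genes called nuclear-enriched with this shRNA. With TPR D, CLK1 was at 15.04, 16.6 and 16.8 FPKM against 5.64, 4.52 and 4.91 FPKM, a log2 ratio of 1.69 ± 0.25 (SD, n = 3; limma adjusted p = 3.77e-05), beside 17.1% of all genes. The ratio of CLK4 was 1.497 ± 0.13 with TPR D (SD, n = 3; limma adjusted p = 0.00093), from 2.69, 2.22 and 2.54 FPKM in the nuclear against 1.00, 0.678 and 0.819 FPKM in the cytoplasmic/ER libraries. With TPR A it was 0.88 ± 0.63 (SD, n = 3; limma adjusted p = 0.0379), from 3.08, 2.05 and 1.48 FPKM against 1.33, 0.773 and 1.32 FPKM. This last call depended on single cultures: the ratio was 0.66 without TPR A replicate 2 (limma adjusted p = 0.287), 0.73 without TPR A replicate 1 (limma adjusted p = 0.179) and 1.23 without TPR A replicate 3 (limma adjusted p = 0.0189), and its adjusted p was 0.0605 without TPR D replicate 3. For CLK2 the ratios were 0.16 and 0.18, and for CLK3 0.17 and -0.12, with TPR A and TPR D, and none of these passed the test (limma adjusted p from 0.409 to 0.811).

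The N/C ratio of no member passed the test for a change upon TPR-depletion, nor did that of any other gene. With both shRNAs pooled, 0 of 14611 genes (0%) were called by limma, and 251 had an unadjusted p under 0.05. For TPR A alone the count was also 0 (0%), with 215 genes under an unadjusted p of 0.05, and for TPR D alone 0 (0%), with 120. These 1.72%, 1.47% and 0.82% of genes are fewer than that threshold lets through when nothing changes. The test was thus strict, and 0 calls do not show that no ratio changed. In a fit with each culture as a block, which keeps the pairing, 455 genes were under 0.05 with both shRNAs and 0 were called. These are still fewer than that threshold lets through when nothing changes. With DESeq2 and by gene class, the study reported higher N/C ratios upon TPR-depletion for mRNAs from short or intron-poor transcripts. For introns as a whole, it saw no significant change in their share of the cytoplasmic reads. The comparisons for TPR A and TPR D share the control cultures. The log2 ratio of CLK1 differed from control by 0.20 with TPR A, by 0.38 with TPR D, and by 0.29 for both (95% interval -0.33 to 0.91, limma adjusted p = 0.999). The ratios of 5 of 6 TPR-depleted cultures lay above all 3 control ratios and that of TPR A replicate 3 lay below them all. The exact 2-sided permutation p was 0.357, unadjusted, and the share of all genes with such counts was not determined. The pooled values were -0.11 for CLK2 (95% interval -0.51 to 0.30), 0.09 for CLK3 (-0.75 to 0.93) and -0.13 for CLK4 (-0.92 to 0.66), all with a limma adjusted p of 0.999. CLK4 differed in sign between the shRNAs, with -0.44 for TPR A and 0.18 for TPR D. A change of 1 log2 unit lay outside the pooled intervals of all 4 genes but not outside those for single shRNAs, which reached 1.10 for CLK1 with TPR D, 1.20 for CLK3 with TPR A, -1.35 for CLK4 with TPR A and 1.09 for CLK4 with TPR D. Without control replicate 2 the pooled values were 0.21 for CLK1, -0.10 for CLK2, -0.23 for CLK3 and -0.03 for CLK4, so that of CLK3 turned its sign (all with a limma adjusted p of 1.00).

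In the total libraries CLK1 and CLK4 were higher in every TPR-depleted culture than in any control culture, but neither passed the test over all genes. CLK1 was at 12.6, 12.8 and 13 FPKM in the control cultures, at 18.4, 19.5 and 13.9 FPKM with TPR A and at 28.3, 16.5 and 14.5 FPKM with TPR D. The control values were close together and the TPR-depleted values were spread, with TPR D replicate 1 the highest. Over all tested genes that library had a Pearson r of 0.945 with the other total libraries. The others that correlated best with their total label had 0.971 to 0.974. The pooled log2 difference of CLK1 was 0.56 (limma SE 0.21, adjusted p = 0.194; exact 2-sided permutation p = 0.0476, unadjusted, over 84 splits of the cultures). CLK4 was at 2.95, 1.66 and 3.37 FPKM in the control cultures, at 3.998, 4.04 and 3.76 FPKM with TPR A and at 5.10, 3.84 and 4.29 FPKM with TPR D. The lowest of these is the control replicate 2 library that was closest to the nuclear fraction. The pooled log2 difference was 0.75 (limma SE 0.27, adjusted p = 0.170; exact 2-sided permutation p = 0.0119, unadjusted, which is the smallest that 84 splits can give). Of all genes tested, 1.14% were called in this comparison and 3.94% had all 6 TPR-depleted cultures above all 3 control cultures. Without control replicate 2 the differences were 0.52 for CLK1 (limma adjusted p = 0.594) and 0.42 for CLK4 (limma adjusted p = 0.748). With TPR A alone CLK1 differed by 0.48 and CLK4 by 0.66, beside 0.821% of genes called (120 genes; 378 in a fit blocked by replicate), and with TPR D alone by 0.64 and 0.83, beside 0.753%. Without TPR D replicate 1 the value of CLK1 with TPR D was 0.35, and without control replicate 2 those of CLK4 were 0.34 with TPR A and 0.50 with TPR D. None of the 4 values with a single shRNA passed the test (limma adjusted p from 0.212 to 0.434), and 3 cultures against 3 cannot give an exact permutation p below 0.1.

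For CLK2 and CLK3 the TPR-depleted and control cultures overlapped. The total level of CLK2 was 13.8, 18.1 and 13.4 FPKM in control, 15.1, 17.6 and 14.8 FPKM in TPR A and 15.8, 17.2 and 15.4 FPKM in TPR D cultures, and the pooled log2 difference was 0.16 (limma adjusted p = 0.573). That of CLK3 was 29.0, 62.6 and 24.1 FPKM in control, 26.6, 22.7 and 25.1 FPKM in TPR A and 19.8, 31.5 and 23.5 FPKM in TPR D cultures. The value of 62.6 FPKM is again that of control replicate 2. The pooled log2 difference of CLK3 was -0.45 (limma adjusted p = 0.441), and -0.07 without that culture (limma adjusted p = 0.983), when that of CLK2 was 0.27 (limma adjusted p = 0.686). The nuclear lncRNAs MALAT1 and NEAT1, 2 of 2 tested, had a median log2 difference of 1.05 in the total libraries and -0.59 in the nuclear libraries, without passing the test in either. These medians were 0.25 and -0.19 without control replicate 2. MALAT1 was at 82.1, 16.3 and 122 FPKM in the control total libraries and at 71.6 to 207 FPKM in the 6 TPR-depleted ones, and its part in the CLK1 and CLK4 values was not tested.

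Within the separate fractions no member passed the test. In the nuclear libraries, where 0.808% of genes were called for both shRNAs, the pooled log2 differences were 0.12 for CLK1, 0.02 for CLK2, 0.08 for CLK3 and -0.03 for CLK4. In the cytoplasmic/ER libraries, where 0.643% of genes were called, they were -0.17, 0.13, -0.01 and 0.09 in the same order. For CLK1 4 of 6 nuclear values lay above all control values and 4 of 6 cytoplasmic/ER values lay below them all. The limma adjusted p was 0.861 and 0.841 for these differences, and the exact 2-sided permutation p 0.369 and 0.512, unadjusted. The share of all genes with such counts was not determined. Without control replicate 2 the nuclear differences were 0.07, -0.04, -0.18 and 0.17, with the sign turned for CLK2, CLK3 and CLK4, and that of the total libraries was 0.42 for CLK4. The difference between total and fractions was not tested.

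**Figure D4:**
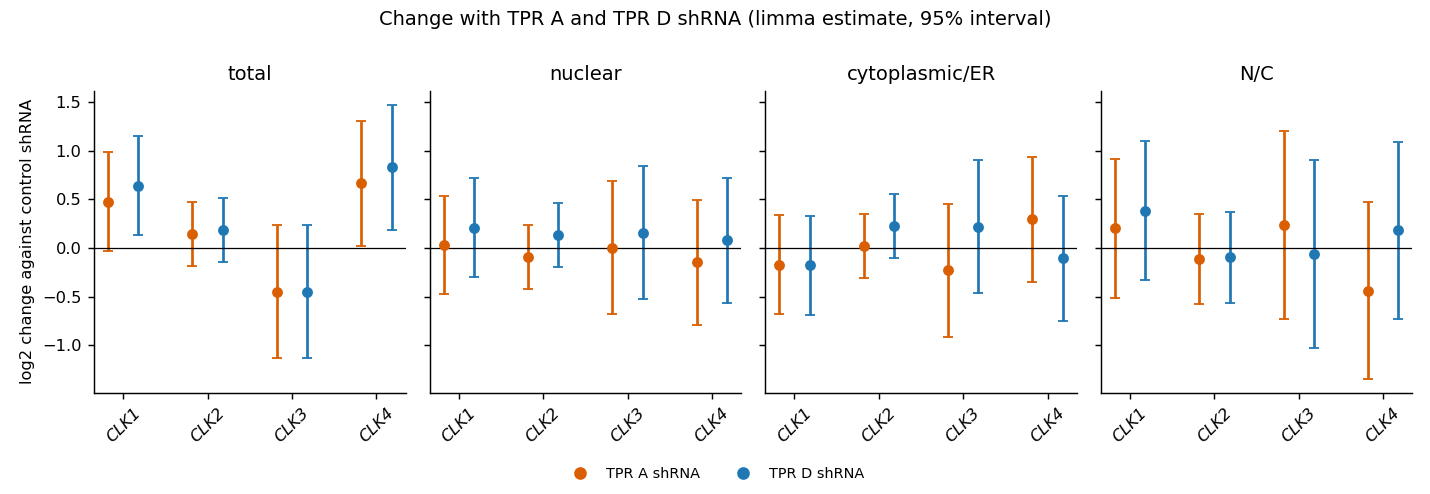
Log2 change of the 4 CLK genes with TPR A and TPR D shRNA against control in the total, nuclear and cytoplasmic/ER libraries and in the N/C ratio, as the limma estimate with its 95% interval. The total-library estimates of CLK1 and CLK4 lie between 0.48 and 0.83, and none of the values shown passed the adjusted threshold.

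Genes that work with the CLKs were set beside them, from lists chosen with earlier results known. Of the SR proteins, the CLK substrates, 10 of 12 were tested and 5 were nuclear-enriched in control cells, namely SRSF11 (log2 N/C ratio 1.09), SRSF5 (1.03), SRSF10 (0.66), SRSF6 (0.53) and SRSF4 (0.45), beside the 20.2% of all genes. The count was 4 without control replicate 2, since SRSF10 (0.50, limma adjusted p = 0.0878) was lost. The median of the list was 0.40, against -0.01 over all genes, and the lowest was SRSF9 at -0.50, which did not pass the test. Of the other SR protein kinases PRPF4B, the pre-mRNA processing kinase, had a log2 ratio of 2.01 and was called, whereas SRPK1 (0.62) and SRPK2 (0.44), the mostly cytoplasmic SR kinases, were not. Among the DYRK kinases, relatives of the CLKs in the CMGC group, DYRK3 (0.53) was called nuclear-enriched and DYRK4 (-0.84) cytoplasmic-enriched, beside 19.2% of all genes called cytoplasmic-enriched, and the highest, DYRK1A (0.87), was not called. None of 3 HIPK kinases tested was called, with HIPK1 highest at 0.63 and HIPK2 lowest at 0.26. Of the catalytic subunits of PP1, a phosphatase that acts on SR proteins, PPP1CA was cytoplasmic-enriched at -1.30, and PPP1CB, at 0.54, was not called. Without control replicate 2 the ratios were 0.49 for DYRK1A, 0.27 for HIPK1, -0.16 for HIPK2 and 0.27 for PPP1CB, none of them called. DYRK3, at 0.68, was then the highest DYRK kinase.

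Other genes known for detained or retained introns gave a mixed picture in control cells. OGT, the O-GlcNAc transferase, had a log2 N/C ratio of 2.16 and MAT2A, which makes S-adenosylmethionine, one of 0.91, and both were called. PABPN1 (0.12), the nuclear poly(A)-binding protein, and NXF1 (0.14), the mRNA export receptor, were not. The 2 called of 4 genes are as many as in the CLK family, and the background is 20.2%. The nuclear lncRNAs MALAT1 and NEAT1 were at 2.21 and 2.37, above CLK1 and CLK4, and at 1.70 (limma adjusted p = 0.0538) and 1.85 (limma adjusted p = 0.0236) without control replicate 2. Over the annotation as a whole, the median control log2 ratio was 0.08 for the 7419 tested protein-coding genes with a retained-intron transcript and -0.05 for the 4962 without.

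**Figure D5:**
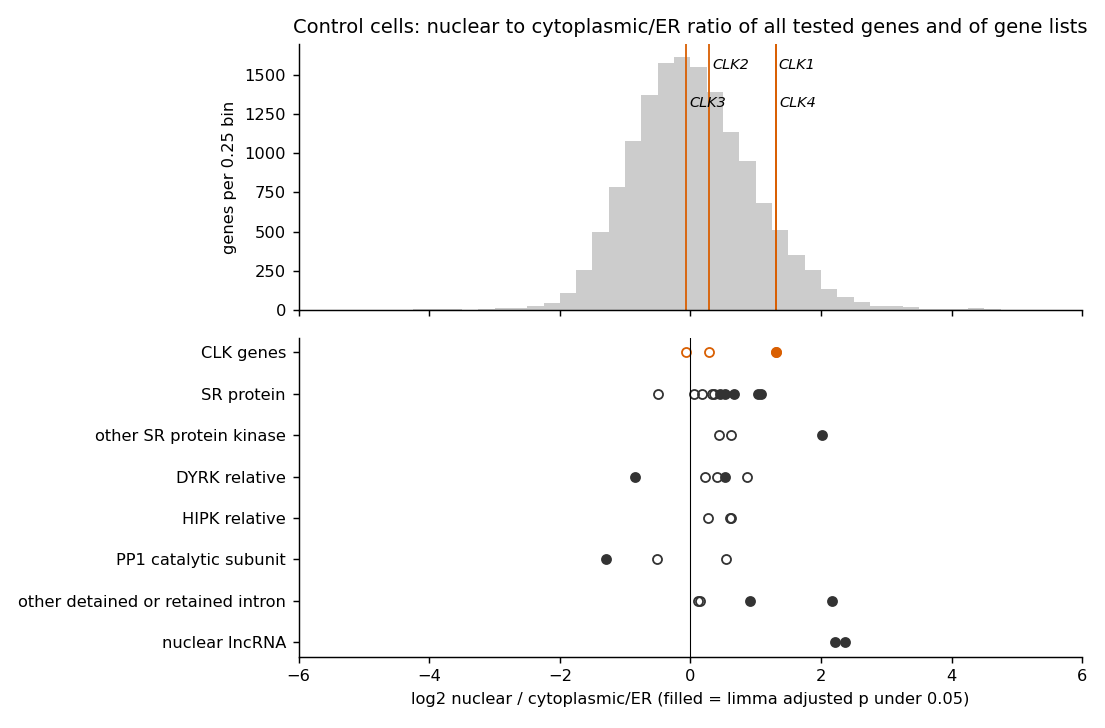
Top, number of the 14611 tested genes per bin of the control log2 N/C ratio, with CLK1, CLK2, CLK3 and CLK4 as vertical lines; bottom, the same ratio for each gene of the lists, filled where the limma adjusted p was under 0.05. CLK1 at 1.30 and CLK4 at 1.32 lie near the 91.0th percentile, PRPF4B and OGT lie above 2, and CLK3 lies at -0.06.

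None of these genes passed the test for a change upon TPR-depletion. For the N/C change with both shRNAs the medians were 0.07 for SR proteins, -0.46 for the other SR protein kinases, -0.11 for DYRK kinases, -0.67 for HIPK kinases, -0.20 for PP1 subunits, -0.03 for the other genes with detained or retained introns and -0.32 for the nuclear lncRNAs, against -0.01 for the CLKs and -0.003 over all genes. The lowest value of any list was -1.04 for HIPK2, the lowest of the genes with detained or retained introns was -0.55 for OGT, and the highest of any list was 0.43 for PPP1CA. In the total libraries the medians were -0.04, -0.31, 0.24, 0.43, 0.13 and -0.10 for the same lists from SR proteins to the genes with detained or retained introns, and 0.36 for the CLKs. DYRK1A (0.88) and HIPK3 (0.83) had the highest values of these 6 lists there and NXF1 (-0.64) the lowest, none of which passed the test. Without control replicate 2 no gene of these lists passed either test, and the medians of the N/C change were -0.02, -0.28, 0.08, -0.32, -0.06, -0.01 and 0.20 in the order given above, with the sign turned for SR proteins, DYRK kinases and nuclear lncRNAs. HIPK2 was then at -0.62 and PPP1CA at 0.26. The medians in the total libraries were then 0.001, -0.41, 0.06, 0.16, -0.10 and -0.22 for the same 6 lists, and 0.34 for the CLKs. Their sign turned for SR proteins and PP1 subunits. DYRK1A was then at 0.67, HIPK3 at 0.40 and NXF1 at -0.38 in the total libraries, and SRPK2 (-0.46) was the lowest.

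The genes most like each member over the 27 libraries were found by Pearson's r of the log2 level. For CLK1 they were SCAND3 (r = 0.954), ZRANB2 (0.952), a spliceosome-associated zinc finger protein, and RANBP6 (0.952), an importin. For CLK4 they were MAB21L3 (0.966), MIR222HG (0.963) and ZNF605 (0.961). CLK1 and CLK4 were themselves alike (r = 0.911). For CLK3 the leading genes were FKBP4 (0.930), a co-chaperone of HSP90, GRWD1 (0.926) and TRPC4AP (0.924), and CLK3 ran against CLK4 (r = -0.621) and CLK1 (r = -0.396). Genes like CLK2 were less close, with LCMT2 (0.793) and CCDC8 (0.770). These coefficients describe libraries that share fractions and cultures. Of 31-base stretches of the canonical mRNAs, CLK1 shared 0.22% with CLK4, whereas CLK2 shared 15.1% with its pseudogene CLK2P1 and its level is the least certain in this respect.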

How the data were processed

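The authors quantified reads with Salmon on protein-coding and lncRNA transcripts of Gencode v19 (hg19), summed them to genes with tximport and deposited FPKM, without read counts. The value of 1 read was therefore estimated from low values of 10989 single-transcript genes, of which at least 88.95% per library lay within 0.1 of a whole read. After division by median-of-ratios factors (0.954 to 1.06), FPKM were taken to log2 with a pseudocount of 0.1, which understates changes of low genes such as CLK4. Genes with a mean above 1 FPKM outside the mitochondrial genome were tested in limma 3.58.1 (R 4.3.3; lmFit, contrasts.fit, eBayes with trend) with the 27 libraries in 9 groups; p-values were adjusted by Benjamini-Hochberg over 14611 genes, with a threshold of 0.05. Reported changes for both shRNAs are the mean of TPR A and TPR D minus control. Single member values were also tested by exact 2-sided permutation over the 9 cultures, 16 tests with both shRNAs. limma was tested on simulated data.

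Splice sites and introns were read from the GRCh37 reference with a GENCODE release placed on it that is later than the v19 used by the authors. The transcript counts and the single-transcript genes come from that later release. The members, gene lists and tests were chosen with earlier results of these data known. Genes named are the 4 CLKs, TPR, the 3 genes most correlated with each member, and from each list (SR proteins, other SR protein kinases, DYRK kinases, HIPK kinases, PP1 subunits, other genes with detained or retained introns, nuclear lncRNAs) the highest, the lowest and all called genes; SRPK1, SRPK2, PABPN1 and NXF1 were named besides these, after their values were seen. One gene that this rule names for CLK2 is not reported here. Same-numbered cultures deviated together, with r over 0.1 in each of 3 pairs, only between control and TPR A total libraries (0.137 to 0.324) and between TPR A and TPR D nuclear (0.131 to 0.266) and cytoplasmic/ER libraries (0.398 to 0.597).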

Additional observations from a re-analysis of the deposited data

Results flagged for a closer look

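The N/C ratio of CLK4 lay on opposite sides of the control mean with the TPR shRNAs. The ratio was below the control mean in every TPR A culture and above it in every TPR D culture, although TPR A replicate 2 (1.309) lay only just below that mean (1.315) and 2 of 3 TPR A ratios lay within the control range. TPR A minus TPR D was -0.62 on the log2 scale. The difference did not pass the test (limma adjusted p = 1.00, unadjusted p = 0.171). Without control replicate 2 it was -0.62 (limma adjusted p = 1.00) but the lower mean of the other control cultures (1.21) lay below TPR A replicate 2. Over single cultures left out it ranged from -0.84 without TPR A replicate 2 to -0.27 without TPR A replicate 3, the culture in which CLK4 had the lowest ratio of all 9 (0.16). The other members gave -0.18 for CLK1, -0.02 for CLK2 and 0.29 for CLK3 in this comparison.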

How the results depend on the processing

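The control N/C ratios of CLK1 and CLK4 and those of CLK1 with TPR A and TPR D and of CLK4 with TPR D kept their direction and passed the limma test under every alternative that has a test, with adjusted p of 0.000169 to 0.0156 for CLK1 and 0.0014 to 0.0343 for CLK4 in control cells. The ratio of CLK4 with TPR A stayed positive but lost its call with no minimum level (0.88, limma adjusted p = 0.0684), with replicates 2 and 3 only (0.73, limma adjusted p = 0.217), with only control and TPR A in the model (0.88, limma adjusted p = 0.0709) and without TPR A replicate 1, TPR A replicate 2 or TPR D replicate 3. Over all cultures left out it ranged from 0.66 to 1.23, and it passed at 1.23. With replicate 1 only, which has no test, the ratio with TPR D was 1.41 for CLK1 and 1.35 for CLK4, the total difference of CLK1 0.92 and the N/C change of CLK2 0.022. No N/C change and no total, nuclear or cytoplasmic/ER change of a member passed the test under any alternative; the limma adjusted p ranged from 0.116 to 0.594 for CLK1 and from 0.105 to 0.748 for CLK4 in the total libraries with both shRNAs. At a minimum mean of 5 FPKM CLK4 was not tested.

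Leaving out single cultures turned the sign of values near 0. The ranges were -0.24 to 0.26 for the CLK3 ratio in control cells and -0.26 to 0.10 with TPR D. For the N/C change with both shRNAs they were -0.23 to 0.26 for CLK3 and -0.27 to 0.048 for CLK4. With 1 shRNA they were -0.064 to 0.60 for CLK1 and -0.083 to 0.41 for CLK3 with TPR A, and -0.17 to 0.024 for CLK2 and -0.38 to 0.16 for CLK3 with TPR D. In the nuclear libraries they were -0.037 to 0.066 for CLK2, -0.18 to 0.26 for CLK3 and -0.20 to 0.17 for CLK4, and in the cytoplasmic/ER libraries -0.21 to 0.13 for CLK3 and -0.11 to 0.21 for CLK4. With replicates 2 and 3 only the cytoplasmic/ER change was 0.14 for CLK3 and -0.24 for CLK4. The cause was not tested.

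With the replicate number as a block no member's call changed, and the total differences with both shRNAs stayed at 0.56 for CLK1 (limma adjusted p = 0.124) and 0.75 for CLK4 (limma adjusted p = 0.107). The count of genes called over the whole table moved with this block from 166 to 560 in the total, from 118 to 318 in the nuclear and from 94 to 347 in the cytoplasmic/ER libraries. Over all alternatives the lowest counts were 0 in the total, 4 in the nuclear and 8 in the cytoplasmic/ER libraries, and the N/C change had at most 2. Genes called for the N/C ratio ran from 3231 to 6866 in control, 1564 to 5288 in TPR A and 2436 to 5662 in TPR D cells. The levels of CLK4, from 0.664 to 5.10 FPKM, were the lowest of the members and rest on the fewest reads.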
